A study of Drosophila melanogaster with 2 samples.

Results

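Binding of Trachealess (Trh) was examined at 10 genes of the Decapentaplegic (Dpp) pathway, out of 13945 protein-coding genes on the main chromosome arms of Drosophila melanogaster. The 10 genes were dpp, gbb, tkv, sax, put, Mad, Med, shn, brk and Dad. The list was selected on peak calls from these same data, so peak counts, ranks and signal values at the genes are given as a description and are not tested. A peak was counted at a gene when its summit lay inside the annotated gene or at most 2000 bp outside it, or when the closest start site (TSS) of any protein-coding gene was that gene's own. The authors kept 2322 peaks by the irreproducible discovery rate (IDR), a measure of how well replicate rankings match, and these are called peaks past IDR. Of them 15 lay at the 10 genes, all 15 by position.

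Chromatin came from whole embryos, of both sexes together, of a transgenic line that stably expresses Trh with GFP at its C terminus. Collections spanned 0 to 24 h of development and GFP was precipitated. There was 1 group with 2 biological replicates, which the labels number 1 and 3, and both were compared with the same control alignment. No second genotype, stage or tissue was compared, and in whole embryos strong binding in few cells and weak binding in many cannot be told apart.

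Dpp is the fly relative of vertebrate BMP2 and BMP4. It and Glass bottom boat (Gbb) bind type I receptors, Thickveins (Tkv) and Saxophone (Sax), together with the type II receptor Punt (Put). The receptors phosphorylate Mad, which joins Medea (Med) and enters the nucleus. There the complex can act with the zinc finger protein Schnurri (Shn) to silence brinker (brk), a repressor of Dpp targets, while Daughters against dpp (Dad) is an inhibitory Smad that is induced by the pathway. In the tracheae, whose formation needs Trh, Dpp signalling directs the dorsal and ventral branches, and it patterns the dorsal ectoderm earlier in the embryo.

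Peaks past IDR lay at 9 of the 10 genes, and sax was the exception. Over all protein-coding genes 22.4% held such a peak by position. The 8 genes other than sax and shn held 1 peak each, and shn held 7. The signal value, the score of a peak in the authors' list, which has no fixed unit and is compared only within a list, had a median of 110.6 at the 15 peaks and of 110.1 over all 2322. The highest were 360.1 next to Med (rank 69) and 334.5 next to gbb (rank 82), and the others lay between 74.5 and 172.4.

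**Figure D1:**
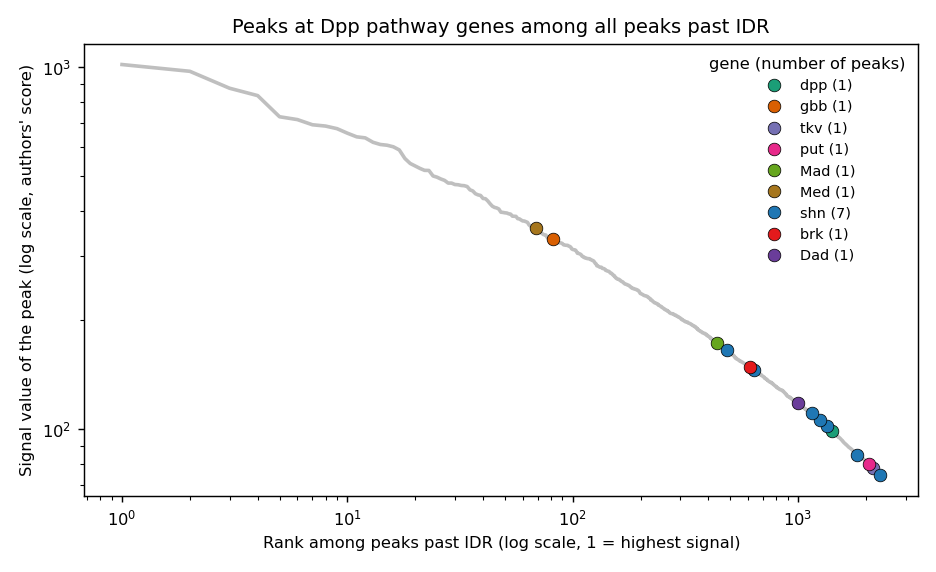
Signal value against rank for all 2322 peaks past IDR (grey line, both axes on a log scale), with the 15 peaks at Dpp pathway genes as coloured points. The points next to Med and gbb, at 360.1 and 334.5, stand apart from the other 13, which lie at ranks 436 to 2316.

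For only 5 of the 10 genes (dpp, put, Mad, shn and brk) was the closest protein-coding TSS to a peak their own, against 13.3% of all protein-coding genes. These genes account for 11 of the 15 peaks. At the other 4 peaks, those assigned by position to gbb, tkv, Med and Dad, a TSS of another gene was closer. Only 3 of the 15 summits were within 500 bp of any annotated TSS, compared with 55.1% of all peaks past IDR, and the other 12 lay in introns, compared with 31.4%. Most of the summits thus lay inside transcribed sequence, away from start sites. The rule collects summits inside gene spans, which had a median of 10131 bp here, so these shares cannot be read as a trait of the genes. In addition, shn alone held 7 of the 15 peaks, and the brk summit lay in an intron of another gene, CG1677.

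The DNA under 7 of the summits is shown because these peaks carry the account of the ligand, the receptors, the Smads and the repressor. Each line holds 101 bp of the dm6 plus strand, 5′ to 3′, with the summit of the peak at the centre, and was read from the release 6 genome. Capitals mark AAGGTCA, the only sequence of those searched that occurred in these 7 windows. The windows are chr2L:2433615-2433715 for dpp, chr2L:5261344-5261444 for tkv, chr3R:14624176-14624276 for put, chr2L:3153362-3153462 for Mad, chr3R:31616121-31616221 for Med, chrX:7307147-7307247 for brk and chr3R:17065103-17065203 for Dad.
dpp: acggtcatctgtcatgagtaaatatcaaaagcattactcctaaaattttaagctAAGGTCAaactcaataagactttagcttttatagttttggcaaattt
tkv: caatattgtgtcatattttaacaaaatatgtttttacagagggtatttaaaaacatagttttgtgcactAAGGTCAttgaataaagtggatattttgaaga
put: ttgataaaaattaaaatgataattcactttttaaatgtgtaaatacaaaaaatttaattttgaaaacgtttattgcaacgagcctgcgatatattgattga
Mad: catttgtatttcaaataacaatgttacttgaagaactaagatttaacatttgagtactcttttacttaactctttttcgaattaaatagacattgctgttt
Med: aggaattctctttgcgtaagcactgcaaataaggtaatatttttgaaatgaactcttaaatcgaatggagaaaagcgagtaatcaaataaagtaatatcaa
brk: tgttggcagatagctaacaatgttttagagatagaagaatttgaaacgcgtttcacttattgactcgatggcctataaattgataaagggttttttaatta
Dad: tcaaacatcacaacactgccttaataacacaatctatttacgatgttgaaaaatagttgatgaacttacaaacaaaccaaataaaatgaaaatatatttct

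These windows are rich in A and T. The GC content around the 15 summits had a median of 27.7%, from 21.8% at put and at 1 shn peak to 56.4% at another shn peak, and the median over all peaks past IDR was 32.7%. AAGGTCA holds AGGTCA, the core site of many nuclear receptors, and was picked only after the sequences had been seen. It lay 7 bp from the dpp summit and 22 bp from the tkv summit, on the plus strand in both, and in 17 of the 2322 windows past IDR (0.732%).

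ACGTG, the core of the sequence bound by Trh with its partner Tango, was absent from the 101 bp around every one of the 15 summits, and 6.68% of all windows past IDR held it on either strand. TACGTG (1.89% of all windows) and CACGTG (0.947%) were absent too, as they contain it. Also absent were GACGNC and GGCGNC, bound by Mad and Med (7.45% of windows held at least 1 of the pair). The Brk sequences TGGCGCC or TGGCGCT or TGGCGTC or TGGCGTT (3.83% together), the Zelda site CAGGTAG (0.431%) and the DREF site TATCGATA (1.94%) were not found either. The forkhead sequence TGTTTAC (4.22%) and GAGAG, read by GAGA factor (9.35%), each occurred at 1 summit, the shn peak nearest to a start site. Within 200 bp of the summit, a width chosen after seeing the data, the Mad and Med sequences occurred at 6 of the 15 peaks (41.9% of all peaks past IDR), those of Brk at 4 (349 of the 2322), TGTTTAC at 4 (13.9%), GAGAG at 5 (45.9%) and TATCGATA at 1 (6.68%). At this width ACGTG occurred at 5 (27.7%), TACGTG at 1 (8.79%), CACGTG at 2 (5.51%), AAGGTCA at 2 (2.93%) and CAGGTAG at 0 (2.41%). A match of this kind is a stretch of letters, and its absence says nothing of whether a factor binds nearby.

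Among the ligands, dpp (FBgn0000490, dm6, 2L, 2428372 to 2459823, plus strand) held 1 peak, at 2433465 to 2433864. Its summit, 2433665, was 5293 bp downstream of the most upstream dpp TSS, in an intron of the 1 transcript of 4 that starts there. In the pool the signal was 99.0 (rank 1415 of 2322). Replicate 1 had 55.6 (rank 1691 of 28743) and replicate 3 had 45.7 (rank 1043 of 30000), with summits 44 and 28 bp away. Another pooled peak, 1773 bp upstream of the same TSS, reached 61.5 (rank 3227 of 21025) and did not pass IDR.

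For gbb, the second ligand gene (FBgn0024234, 2R, 23851562 to 23853247, plus strand), the peak was at 23850326 to 23850484, 1144 bp upstream of the gene. Its summit was 117 bp upstream of a TSS of eIF6, which encodes a translation initiation factor, and 88 bp from that of the antisense RNA asRNA:CR45928. It also lay inside ytr. The signal was 188.0 in replicate 1 (rank 98) and 146.0 in replicate 3 (rank 68), so the peak was among the strongest in both. The gene itself, of 1686 bp, held no other pooled peak within 2000 bp.

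Of the receptor genes, tkv (FBgn0003716, 2L, 5219000 to 5271384, minus strand) held a peak of signal 78.0 (rank 2142) at 5261194 to 5261593. The summit was 9990 bp downstream of the most upstream tkv TSS, in an intron of 1 of its 4 transcripts, while a TSS of the cytochrome P450 gene Cyp4ac1 was 2607 bp away. The ranks in the 2 replicates differed by 0.80 on the log2 scale, against a median of 0.63 over all peaks matched in both. The tkv peak had a signal of 51.4 and rank 1958 in replicate 1, and 25.3 and rank 3415 in replicate 3. Its −log10 q value was 3.12 in replicate 1, where the highest was 3.46, and 0.713 in replicate 3, where the highest was 3.09. The 2 summits were each 1 bp from the pooled one.

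put (FBgn0003169, 3R, 14619030 to 14625703, minus strand) held a peak at 14624026 to 14624425, 1477 bp downstream of its single TSS and in the first intron of its canonical transcript. Its pooled signal was 79.9 (rank 2066), with 47.7 (rank 2265) in replicate 1 and 37.0 (rank 1574) in replicate 3.

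sax (FBgn0003317, 2R, 7806484 to 7810067, plus strand) had no peak past IDR. The pooled list held 1 peak, 2850 bp downstream of the first sax TSS, of signal 43.2 (rank 6303 of 21025) and −log10 q value 0.560, against at least 2.80 past IDR. Replicate 1 had its strongest summit upstream of sax, at 7805596 (signal 25.9, rank 7328), and replicate 3 had it inside the gene, at 7809349 (19.4, rank 7336). The replicates thus differed in their strongest position, although replicate 1 also had a weaker summit at 7809443 (20.4, rank 12684), near that of replicate 3. Of 3120 other genes with a span within 1.5 times that of sax, 23.3% held a peak past IDR.

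**Figure D2:**
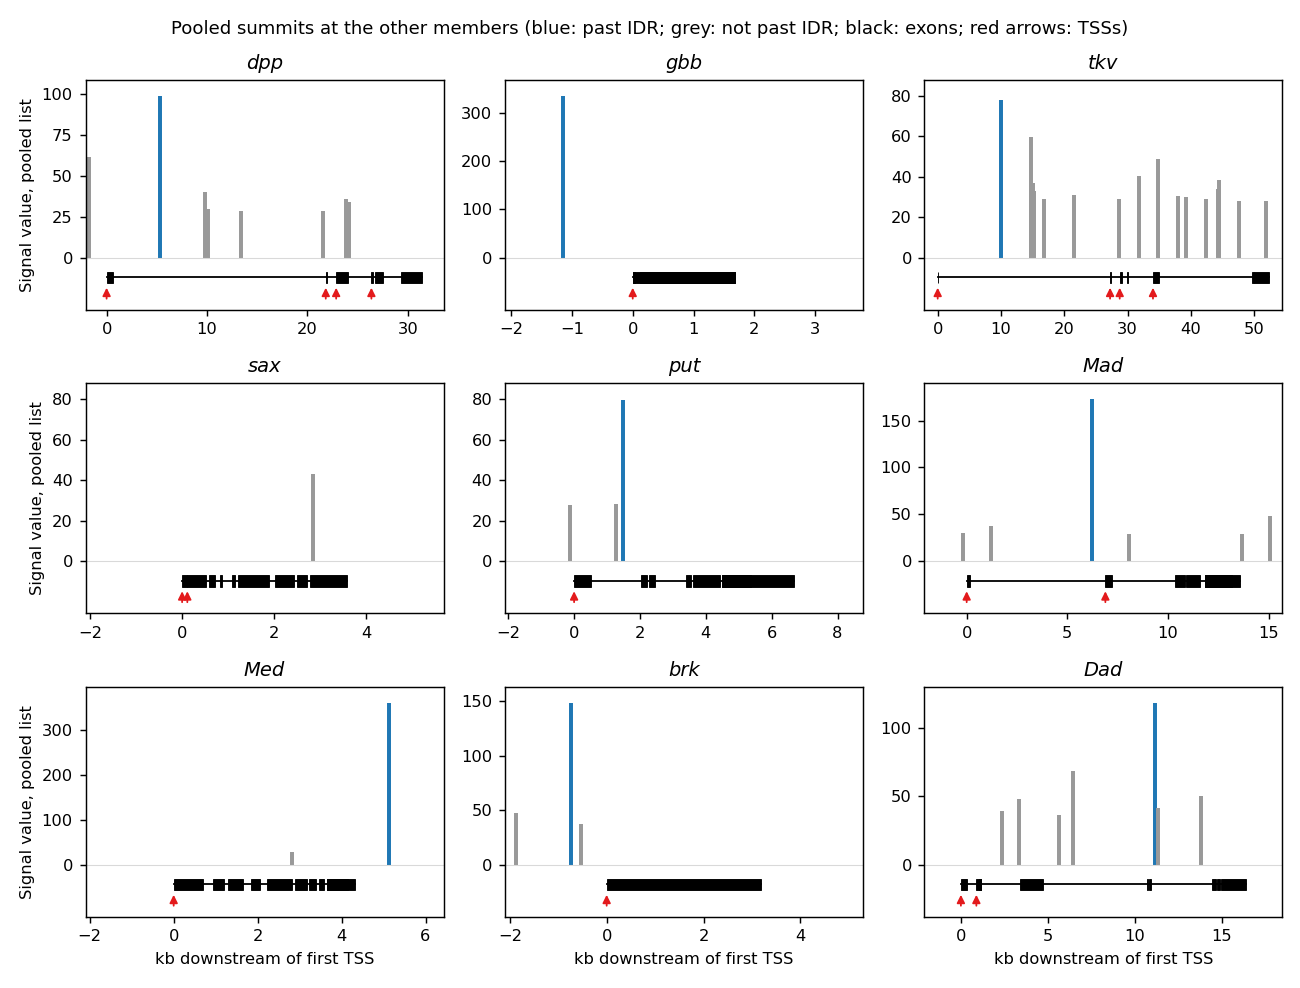
Summits of the pooled list at the 9 genes other than shn, by distance from the most upstream TSS in kb (horizontal axis, read in the direction of transcription) and signal value (vertical axis, different in each panel). Blue lines passed IDR and grey lines did not; black boxes are exons of all transcripts and red arrows are annotated TSSs. Each panel but that of sax has 1 blue line, which lies outside the gene for gbb, Med and brk.

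The Smad genes Mad and Med differed in where their peaks lay. Mad (FBgn0011648, 2L, 3146056 to 3159643, minus strand) held the strongest peak inside any of the 10 genes, of signal 172.4 (rank 436), at 3153212 to 3153611. Its summit was 659 bp upstream of an internal Mad TSS and 6231 bp downstream of the outer TSS. It had a signal of 110.0 (rank 405) in replicate 1 and 62.4 (rank 557) in replicate 3. The Med peak (31616091 to 31616258 on 3R) was 796 bp beyond the 3′ end of Med (FBgn0288966, 31611046 to 31615375, plus strand). Its summit was 11 bp upstream of the TSS of the neighbour Mnat9, and it held rank 71 in both replicates (214.0 and 145.0).

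At Mad, ACGTG occurred just outside the 101 bp window, and this stretch is shown because the summit of replicate 1 lay closer to it than the pooled one did. The site at chr2L:3153318-3153322 was 92 bp from the pooled summit, 26 bp from the summit of replicate 1 and 118 bp from that of replicate 3. The stretch chr2L:3153293-3153347 of the plus strand follows, with each ACGTG on either strand in capitals; the first block, CACGTG, holds it on both strands. The stretch also holds GGCGNC and, overlapping it on the minus strand, the Brk sequence TGGCGCC. Both are left in lower case.
Mad site: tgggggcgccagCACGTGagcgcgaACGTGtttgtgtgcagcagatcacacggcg

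Downstream of the receptors, brk (FBgn0024250, X, 7307939 to 7311132, plus strand), which the pathway silences, held a peak at 7306997 to 7307396. The summit was 742 bp upstream of its only TSS, in an intron of CG1677 and inside lncRNA:CR44357. The signal was 148.1 in the pool (rank 613), 72.4 in replicate 1 (rank 996) and 74.4 in replicate 3 (rank 374). In both replicates the summit was within 3 bp of the pooled one, yet the rank ratio, 1.41 on the log2 scale, was the second widest of the 15. Dad (FBgn0020493, 3R, 17054007 to 17070408, plus strand) held a peak of 118.0 (rank 996) at 17064953 to 17065352. It lay in intron 5 of the canonical transcript, 10256 bp from the nearest Dad TSS and 7522 bp from that of Ns1, which encodes a nucleolar GTPase. The signal was 75.4 (rank 915) in replicate 1 and 44.2 (rank 1118) in replicate 3. A second Dad summit in the pool, 5566 bp downstream of a Dad TSS, had a signal of 68.4 (rank 2677) and was the strongest peak at any of the genes that did not pass IDR. The weakest that passed was a shn peak of 74.5 (rank 2316).

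Of the 15 peaks 7 were in shn (FBgn0003396, 2R, 11159086 to 11217394, plus strand), a gene of 58309 bp with 5 annotated TSSs. In the order of transcription their summits were at 11173627, 11178732, 11184598, 11194785, 11195773, 11197121 and 11202955, over 29328 bp, and the first was 14541 bp downstream of the most upstream TSS. All 7 had a TSS of shn as the closest one.

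The first, at 11173427 to 11173826, was 176 bp upstream of the second TSS, from which 2 of the 6 transcripts start, and was the only promoter peak of shn. It had a signal of 102.2 (rank 1345), with 62.6 in replicate 1 (rank 1342) and 33.2 in replicate 3 (rank 1897). Its −log10 q value was 3.46 in replicate 1 and 1.60 in replicate 3. The next, at 11178532 to 11178931, was in the first intron of the canonical transcript, 4492 bp upstream of the third TSS. Its signal of 74.5 placed it at rank 2316. Replicate 1 gave it 53.6 (rank 1823) and the closest summit of replicate 3 was 137 bp off (25.3, rank 3405). This made it the only one of the 15 peaks without a summit within 100 bp in both replicates. The −log10 q value was 3.08 in replicate 1 and 0.715 in replicate 3, the latter about as low as at tkv (0.713).

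The strongest of the 7, at 11184398 to 11184797, was in the same intron, 1374 bp downstream of the third TSS. Its signal was 164.9 (rank 485) in the pool, 88.3 (rank 646) in replicate 1 and 71.2 (rank 406) in replicate 3. It was followed 10187 bp further on by 3 peaks spaced by 988 and 1348 bp in the second intron of the canonical transcript. The first of these, at 11194585 to 11194984, had 146.0 (rank 635), with rank 484 in replicate 1 (102.0) and 1377 in replicate 3 (39.9), the widest rank ratio of the 15 (1.51 on the log2 scale). The middle one, at 11195573 to 11195972, had 105.7 (rank 1249), with 58.2 (rank 1550) and 48.8 (rank 911) in replicates 1 and 3.

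The third of this group, at 11196921 to 11197320, lay 1155 bp upstream of the fourth TSS and had 110.6 (rank 1148), with 60.8 (rank 1419) and 42.7 (rank 1202) in replicates 1 and 3. The last shn peak, at 11202755 to 11203154, was 1674 bp upstream of the fifth TSS, also in the second intron. It had a signal of 85.0 (rank 1832), 46.5 in replicate 1 (rank 2365) and 37.1 in replicate 3 (rank 1567), and was the richest in G and C (56.4%).

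**Figure D3:**
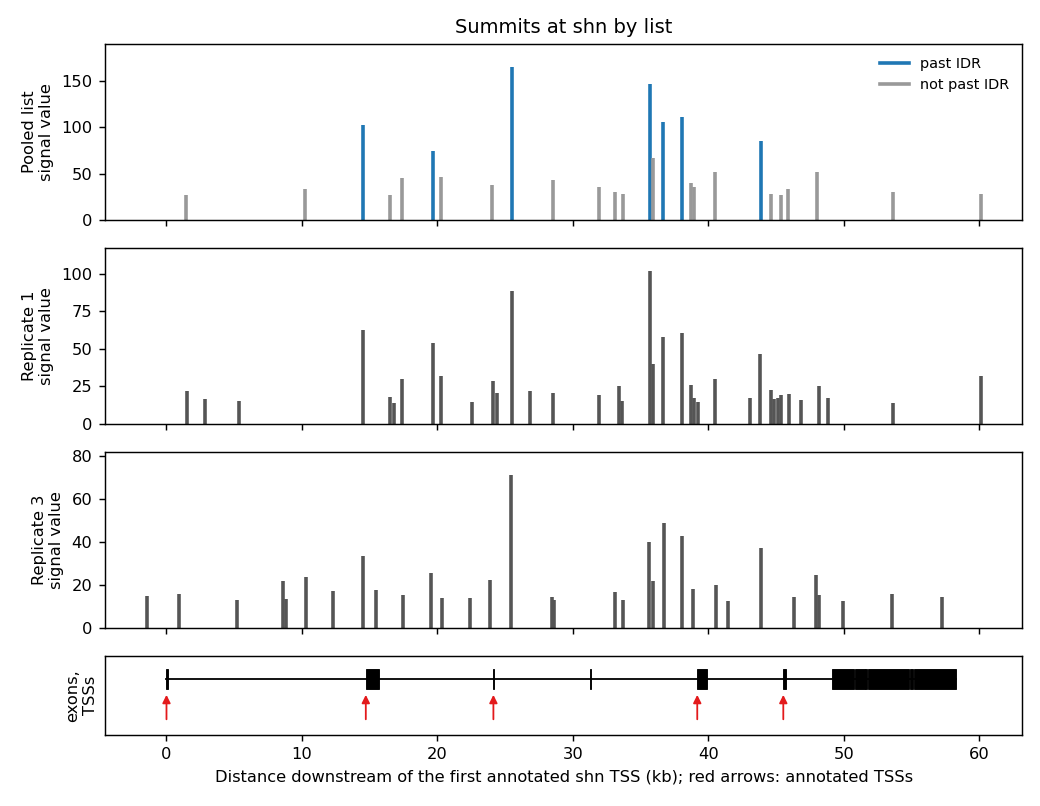
Summits at shn in the pooled list and in each replicate, by distance from the most upstream TSS in kb (horizontal axis) and signal value (vertical axis, on its own scale in each list), above the exons and TSSs of all transcripts. The 7 summits past IDR (blue) lie from 14.5 to 43.9 kb downstream, and the highest in the pool, 25.5 kb downstream, is also the highest of replicate 3, while that of replicate 1 is 35.7 kb downstream.

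Few genes held as many peaks past IDR as shn. In all, 9 of the 13945 protein-coding genes (0.0645%), shn included, held 7 or more peaks past IDR. Among 358 other genes with a span within 1.5 times that of shn, the median was 0 peaks, the highest was 10 and 5 genes (1.40%) held at least 7. Nearest to shn in this count were RapGAP1, Raf and sbb with 7 and Hr4 with 8, followed by rdx, Tlk, dlp and prage with 5 each. The pooled list held 27 peaks at shn, or 4.33 per 10 kb with the flanks, against a median of 9.00 peaks for the genes of like span, and 12.9% of all protein-coding genes had at least that density. Replicate 1 listed 38 peaks at shn and replicate 3 listed 33.

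Counted per 10 kb with the flanks, peaks past IDR were denser at 3 short genes, gbb (1.76), brk (1.39) and Med (1.20), than at shn (1.12). Each of these 3 values rests on 1 peak, whose summit lay outside the gene, in the flanks. All 10 genes had at least 1 peak in the pooled list, as did 73.3% of all protein-coding genes. By position alone the pooled list had 74 peaks at the 10 genes, the 15 past IDR and 59 that did not pass, and by position or nearest TSS it had 82. tkv had 16 pooled peaks, dpp 8, Dad 7, Mad 6, put and brk 3 each, Med 2, and gbb and sax 1 each. The pooled density ran from 1.32 per 10 kb at sax to 4.33 at shn, with a median of 2.82, and the median over protein-coding genes was 1.85.

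Gene length bears on these counts. The 10 genes had a median span of 10131 bp, against 2166 bp for all protein-coding genes, and the share of genes with a peak past IDR rose with span, from 11.4% of genes up to 1000 bp to 48.0% of those over 64000 bp. Among other genes with a span within 1.5 times that of the gene in question, the share with a peak was 20.0% for gbb, 22.9% for brk, 25.2% for Med and 28.0% for put. It was 36.0% for Mad, 36.4% for Dad, 39.1% for dpp, 41.2% for tkv and 44.1% for shn.

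**Figure D4:**
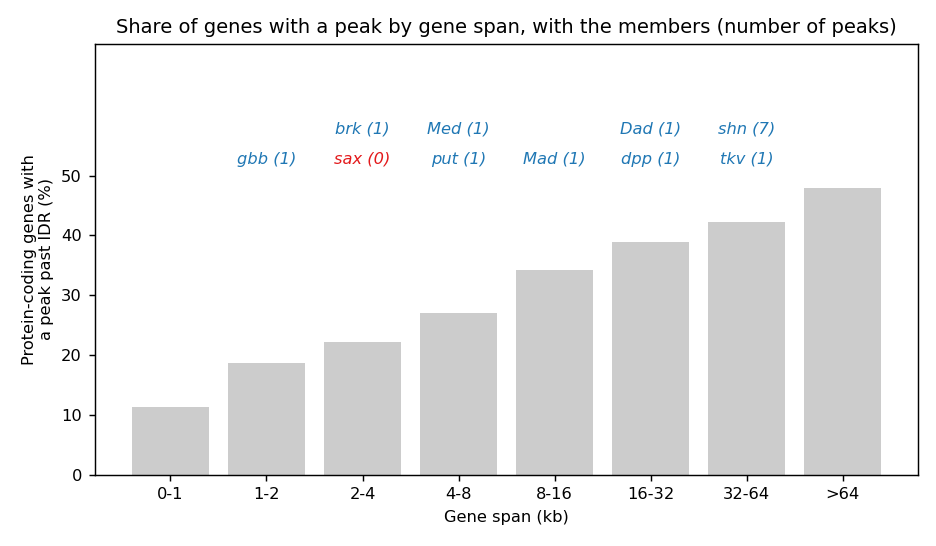
Percentage of protein-coding genes with a peak past IDR (vertical axis) by gene span in kb (horizontal axis), with the 10 genes written above the bin of their span and their number of peaks in brackets. The share rises from 11.4% to 48.0% over the bins, and sax, in red, is the only gene of the 10 with no peak.

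The replicates were compared at the 15 peaks by the distance of their summits and by rank. Peaks past IDR were kept because replicate rankings match, so agreement at them was partly fixed in advance and is only described. Of the 15 peaks, 14 had a summit within 100 bp in both replicate lists, as did 94.2% of all peaks past IDR. Within 50 bp the number was 8, against 75.4% of all peaks past IDR, so the count depends on the distance allowed. Taking the 2322 strongest peaks of each replicate, 14 of the 15 were matched in replicate 1 and 13 in replicate 3, and 12 in both (68.1% of all peaks past IDR). The peak missed in replicate 1 was the last of shn, and those missed in replicate 3 were at tkv and at 11178732 in shn. The rank in replicate 1 divided by that in replicate 3 differed from 1 by a median of 0.56 on the log2 scale, in either direction, over the 14 peaks, and by 0.63 over all peaks matched in both. Counted by position among the 2322 strongest peaks of each replicate, 9 of the 10 genes had a peak in replicate 1 and 8 in replicate 3. Over all protein-coding genes the shares were 22.7% and 21.5%.

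**Figure D5:**
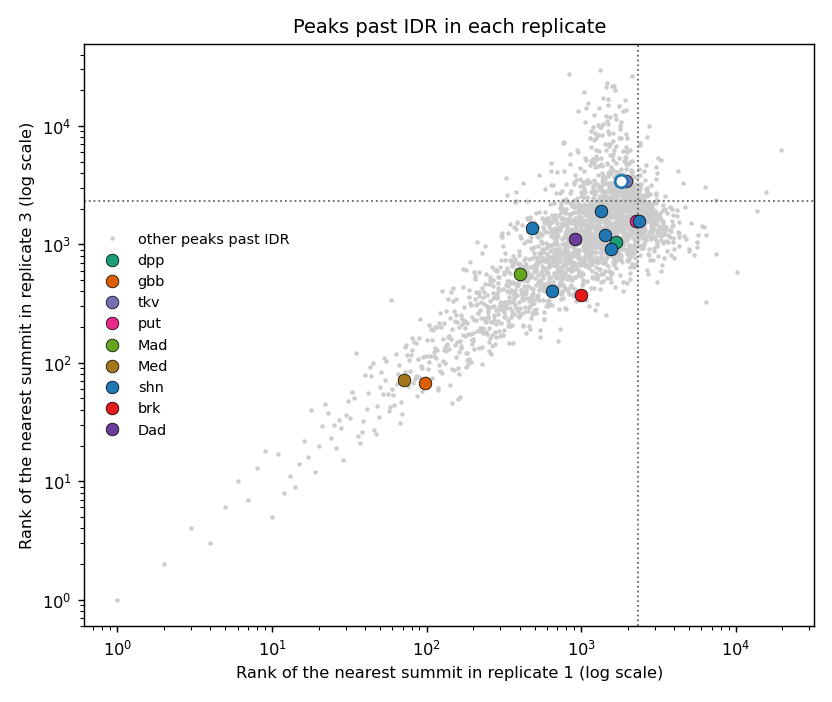
Rank of the nearest summit in replicate 1 (horizontal axis) and replicate 3 (vertical axis), both on a log scale, for peaks past IDR. Coloured points are the peaks at Dpp pathway genes, the open circle is the shn peak without a summit within 100 bp in replicate 3, and dotted lines mark rank 2322. The points for Med and gbb are at rank 68 to 98 in both replicates, and tkv and the open circle are above the horizontal line.

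A wider list held 44 further genes, of BMP and activin signalling or listed as targets of Dpp. Whether each listed target responds to Dpp was not tested. Of these, 17 (38.6%) held a peak past IDR by position and 13 (29.5%) by the nearest TSS, against 22.4% and 13.3% of all protein-coding genes. Gene length was not matched here, and spans in the list ran from 523 bp (srw) to 77804 bp (Ubx). By position the share over all protein-coding genes was 34.3% at spans of 8000 to 16000 bp and 38.9% at 16000 to 32000 bp. All 3 of the other receptors and R-Smads held a peak by position. These were wit (129.3, in an intron), a type II receptor gene, babo (115.6), which encodes the activin type I receptor, and Smox (101.2), which encodes its Smad. None of these 3 did by nearest TSS. The babo peak was 72 bp from the TSSs of CG33199 and CG8229, and the Smox peak 84 bp from that of CG17982.

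Among 11 extracellular modulators, 5 (45.5%) held peaks by position, against 22.4% of all protein-coding genes. The glypican gene dlp, whose product binds extracellular ligands, had 5 peaks, the highest in an intron (160.6). The closest TSS to that peak was of CG43121, 6275 bp away, and only 2 peaks had a TSS of dlp as the closest. A relative of dlp, dally, had 1 (74.4, rank 2321), 1349 bp from the TSS of CG32026. magu, also known as pentagone, had 3, with the highest 291 bp from its TSS (148.7). The antagonist gene sog had 2 (highest 115.4, in an intron 7038 bp from its TSS). cv-2 had 1 (139.8, in an intron), whose closest TSS was of CG17974, 13633 bp away. tsg, cv, tld, tok, srw and Fs had none by position.

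Of 5 other ligand genes myo held a peak by position (79.0, in its 5′ UTR), or 20.0%, against 22.4% of all protein-coding genes. The genes daw, Actbeta, mav and scw, which acts with dpp in the early embryo, had none. Of 3 intracellular modulators CtBP, a corepressor used by Brk, held 1 (85.7), and Smurf and Sara held none. Of the 18 genes listed as targets in the embryo 7 (38.9%) held peaks by position. Each class holds few genes, so its share is not read as a trait of the class. ush had 10 by position, and counted separately 7 peaks had a TSS of ush as the closest (highest 233.0). The highest peak past IDR (1016) was among the 10 by position, and its closest TSS was that of cbt, 1404 bp away. tup (140.7, 82 bp from the TSS of CG10602), puc (119.2), tin (115.0, 193 bp from its TSS) and kay (88.5) had 1 each. So did Doc2 (84.9, 2062 bp from the TSS of CG5194) and Ance (152.9, 68 bp from the TSS of Smg5). Counted by the nearest TSS instead, Doc2 had 2 peaks (highest 136.8, 6566 bp away) and tup had 1 (115.6, 8990 bp away). Doc1, with none by position, had 1 by the nearest TSS (77.7, 7021 bp away). The tracheal targets kni and knrl held none by either count, nor did zen, pnr, peb, Doc3, C15, bap, lab and Ubx. Of the 4 wing targets bi, salm, salr and vg none held a peak by position, while a peak of 76.7 had the TSS of salm as its closest, 7519 bp away.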

How the data were processed

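Trh-GFP ChIP-seq peak lists of 2 biological replicates of whole embryos were used. Chromatin was sonicated, per the labels. The authors deposited lists in narrowPeak layout on dm6, and per the deposited file lists the lists of each replicate and of both pooled hold peaks and background as input for IDR, while 1 further list holds the peaks that passed it. All derive from the replicates' alignments and a control alignment common to both. Aligner, peak caller, versions and IDR threshold: not given in the sources used here. The signal value is a score by the authors, and the −log10 q value is also as deposited. Reads and coverage did not enter, so depth and the precision it gives are unknown, and p-values were not computed. The list of replicate 3 held exactly 30000 peaks and may have been cut at that number, which no source states. That of replicate 1 held 28743 and the pooled list 21025. Peaks on dm3 were not analysed here.

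The summit was the peak start plus the deposited offset, written 1-based. Genes came from the Ensembl 115 annotation (BDGP6.54), whose coordinates are dm6, and sequences from the release 6 genome. All 10 members and all 44 genes of the wider list matched a protein-coding symbol. Sequences were searched on both strands within 50 bp of a summit. A summit up to 500 bp from an annotated TSS was called promoter, and the canonical transcript is the one the annotation marks. The assignment of summits to genes was checked on planted summits. Members, lists and sequences were chosen with earlier results of these data known. Named are all members with each peak past IDR, genes of the wider list with a peak past IDR, and for shn the 5 genes of like span with the nearest peak count, ties at the last place included. Genes of the wider list without a peak were named as well, to account for it. Other distances, thresholds and single replicates were tried. Python 3.11.15, numpy 2.4.6 and pandas 2.3.3 were used.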

Additional observations from a re-analysis of the deposited data

How the results depend on the processing

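For the 9 counts 51 alternatives were computed, of which 36 stayed within 1.5 times the value reported. The number of the 10 genes with a peak by position ranged from 6 to 10. Keeping only the stronger part of the list past IDR, cut at its middle rank, left 8 peaks at the 10 genes, 3 at shn, 3 genes by nearest TSS, and in the wider list 11 genes by position and 7 by nearest TSS. The whole pooled list gave by position 74 peaks at the 10 genes and 27 at shn, and of the wider list 38 genes by position and 38 by nearest TSS. With 0 bp around the gene the wider list had 11 genes. With summits matched within 50 bp, 8 of the peaks were shared by both replicates (75.4% of all peaks past IDR), and within 1000 bp of a TSS there were 5. Among these settings, the share over all protein-coding genes is given only by position, for the whole pooled list (73.3%) and for single replicates (22.7% and 21.5%). The other gene and peak counts above therefore cannot be set against a background. ACGTG occurred at 2 summits within 100 bp (13.1% of all peaks past IDR) and at 5 within 200 bp (27.7%), the latter distance chosen after seeing the data, and at 0 to 1 when 1 replicate was left out. That 1 was Mad, with the summit of replicate 1, when replicate 3 was left out. The cause of these changes was not tested. AAGGTCA was likewise chosen after seeing the data. No paired analysis was possible because there is 1 group. Depth was unknown, so a gene without a peak is not shown to be unbound.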
